A study of Mus musculus with 6 samples.

Results

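Toll-like receptors and their co-receptor Cd14 were examined in bone marrow LSK cells of young mice, in cells with and without a lineage mark set by endothelial Cre activity. The set holds the 10 genes Tlr1 to Tlr9 and Cd14, chosen by name, out of 22180 genes on the arrays with an unambiguous symbol. The choice was made with earlier results of these data known. Each of the 10 was read by 1 probe. LSK cells lack mature lineage markers and carry Sca-1 and Kit, the gate of blood stem cells and multipotent progenitors. The 3 YFP-positive LSK samples and the 3 YFP-negative LSK samples came from C57Bl6 mice of the same genotype, tamoxifen inducible Tg(Cdh5-Cre/ERT2) crossed to Rosa 26 YFP. All mice received tamoxifen on each of days 1, 2 and 3 of life and were studied at postnatal day 27. Cre was driven by the promoter of Cdh5, the gene of VE-cadherin, and the YFP mark persists in the descendants of a recombined cell, so a YFP-negative cell may still descend from endothelium that escaped recombination. Whether replicates were separate animals or pools is not given, so p-values measure the spread between these samples only, which may be technical.

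Toll-like receptors are membrane proteins that bind conserved molecules of microbes and start inflammatory transcription. Those at the cell surface bind bacterial lipids, lipoproteins and flagellin, and those in endosomes bind nucleic acids. Most signal through the adaptor Myd88, while Tlr3 signals through Ticam1 (TRIF) and Tlr4 through both. Blood stem and progenitor cells, myeloid cells and endothelium are all known to carry some of these receptors.

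The promoters of Tlr3 and Tlr8, the receptors of largest difference past the threshold, are shown with that of Tlr2, whose levels overlapped, as the 250 bases before the RefSeq gene start (GRCm38.p6, 5′ to 3′ on the gene's strand). RefSeq promoter entries were matched for 7 of the 10 genes. Cd14 was left out of the matching, and Tlr4 and Tlr7 had no entry, so these genes are named only. Capitals mark matches, on either strand, to the interferon-stimulated element (GAAA, 2 free bases, GAAA), the AP-1 site TGANTCA, the STAT site TTCNNNGAA, the PU.1 core GAGGAA and the kappaB site of NF-kappaB.
Tlr3 at chr8:45410381-45410630, minus strand: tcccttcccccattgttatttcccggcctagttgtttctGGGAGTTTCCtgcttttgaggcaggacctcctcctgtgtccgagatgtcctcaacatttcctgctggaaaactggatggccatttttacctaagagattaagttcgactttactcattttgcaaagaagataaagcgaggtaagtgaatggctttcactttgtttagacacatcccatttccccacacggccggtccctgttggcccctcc
Tlr8 at chrX:167264330-167264579, minus strand: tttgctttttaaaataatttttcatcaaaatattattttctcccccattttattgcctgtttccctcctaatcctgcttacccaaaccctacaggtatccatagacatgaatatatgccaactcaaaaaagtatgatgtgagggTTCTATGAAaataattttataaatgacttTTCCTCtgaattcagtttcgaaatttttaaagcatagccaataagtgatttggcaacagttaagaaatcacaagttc
Tlr2 at chr3:83841609-83841858, minus strand: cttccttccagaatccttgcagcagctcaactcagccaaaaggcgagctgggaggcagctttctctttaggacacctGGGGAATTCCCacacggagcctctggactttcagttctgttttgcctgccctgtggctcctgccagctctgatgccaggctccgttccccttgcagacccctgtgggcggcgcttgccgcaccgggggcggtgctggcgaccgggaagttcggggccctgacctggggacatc
The Tlr3 window held 1 kappaB match, 211 to 202 bases before the start. The Tlr2 window held 2 overlapping kappaB matches between 173 and 163 bases before the start. A STAT match and a PU.1 match lay in the Tlr8 window. Over 32536 promoter windows of the same length, 3.92% held a kappaB match, 7.04% a STAT match, 23.4% a PU.1 match, 6.73% an AP-1 match and 2.98% an interferon-stimulated element. These are matches of letters and not measured sites.

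Levels are log2 values as deposited, and differences are YFP-positive minus YFP-negative in log2 units with the moderated standard error (SE) of limma. Each called gene passed an adjusted p of 0.05 over all 22180 genes. Array medians ran from 3.62 to 3.68, and a level below them cannot be told from background here, and folds measured from there may be too small. Endothelial markers separated the populations, with 14 of 14 higher in YFP-positive arrays and a summed log2 level of 126 to 135 there, against 63.3 to 71.3 in YFP-negative arrays. Stem and progenitor genes were lower, 6 of the 9 measured past the threshold, with sums of 45.4 to 50.8 on YFP-positive and 63.7 to 64.7 on YFP-negative arrays. Kit, which defines the gate, read 6.98, 6.56 and 7.06 on YFP-positive and 7.57, 7.96 and 7.74 on YFP-negative arrays, and was 1.86-fold lower (limma adjusted p = 0.0496). Sca-1 itself (Ly6a) was not analysed here. Both arrays numbered 3 stood apart in neutrophil markers, with a median level 2.26 above the YFP-negative mean in the YFP-positive one and 1.60 above it in the YFP-negative one, against -0.94 to 0.64 on the other 4 arrays.

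Of the 10 genes, 3 were higher in YFP-positive LSK cells, Tlr3, Tlr8 and Tlr4, and none was lower. This is 30.0% of the set, against 4.84% of all genes called in either direction, 2.88% higher and 1.96% lower. Because the set was chosen with earlier results of these data known, its share is a description and not a test. The same 3 genes were those whose YFP-positive arrays all lay above the YFP-negative arrays, where 10.8% of all genes did so, and 0 of the 10 lay wholly below, where 11.9% of all genes did. The median difference of the 10 genes was 0.44, against -0.0073 over all genes. It lay between the differences of Tlr2 (0.15) and Cd14 (0.74), neither of which passed. Without YFP-positive replicate 3 those differences were -0.26 and -0.43, so the median depends on that array. The levels of Tlr1 and Tlr5 were below the highest array median in both population means, and the other 8 had a mean above it in at least 1 population.

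**Figure D1:**
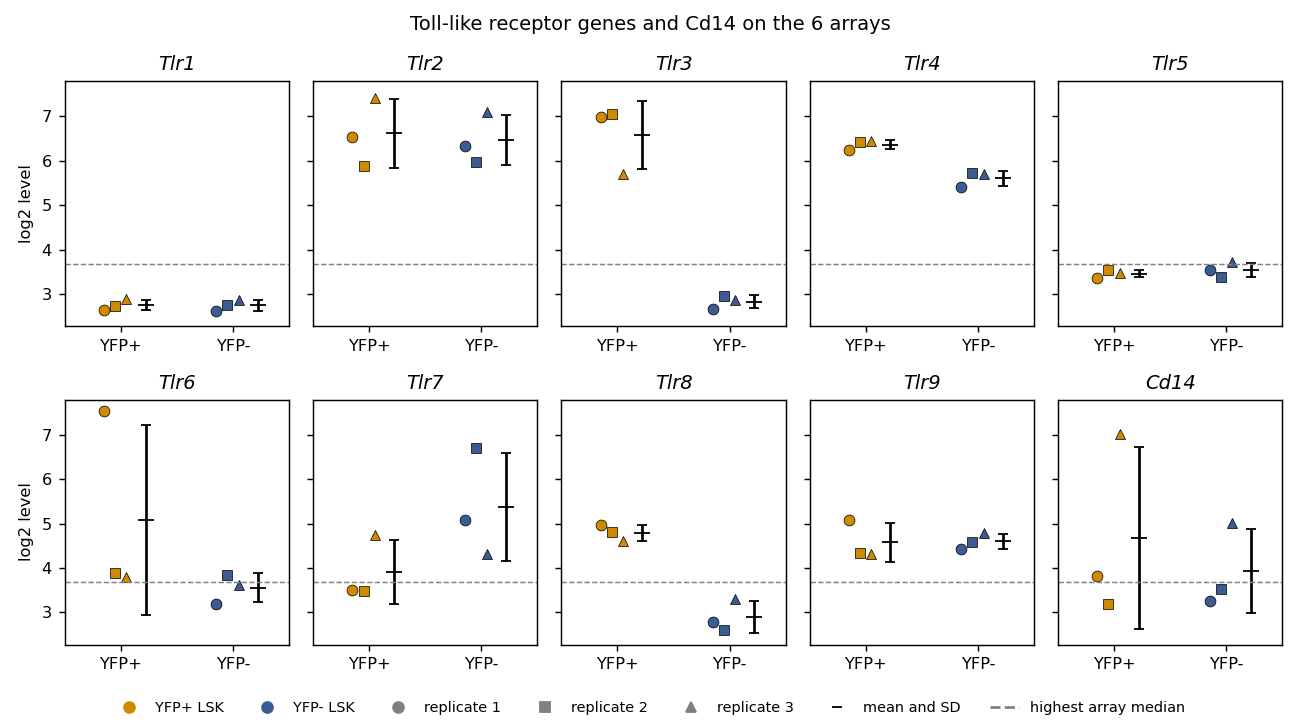
Log2 level of each gene (vertical axis) on the 3 YFP-positive and the 3 YFP-negative arrays. Symbols give the replicate number, bars the mean and SD of 3 arrays, and the dashed line the highest array median (3.68). Tlr3, Tlr4 and Tlr8 have all YFP-positive arrays above the YFP-negative ones, and Tlr6 and Cd14 each have 1 YFP-positive array far above the rest.

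Among the endosomal receptors, Tlr3, which binds double-stranded RNA, differed most between the populations. Its level was 6.99, 7.05 and 5.71 on YFP-positive arrays 1, 2 and 3, against 2.66, 2.95 and 2.87 in the YFP-negative replicates. Every YFP-positive array was clearly above the array medians and every YFP-negative array below them. The difference was 3.75 ± 0.37 (SE), or 13.5-fold (95% interval 2.85 to 4.66 in log2 units, limma adjusted p = 0.00513). The array of lowest Tlr3 among the YFP-positive ones, replicate 3, was also the one of lowest endothelial signal. The median endothelial marker stood 3.88 above the YFP-negative mean there, against 4.50 and 4.61 in replicates 1 and 2. The part of endothelial cells in the level of Tlr3 was not tested, and in such bulk samples a change in the number of cells of a type and in the RNA per cell cannot be told apart. Tlr3 kept its call whichever of the 6 arrays was left out (highest adjusted p = 0.0316), and missed the threshold without moderation of the variance (adjusted p = 0.0752).

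Tlr8, an endosomal receptor for products of RNA breakdown in humans, whose mouse form is less responsive to the same ligands, was also higher. Its level was 4.97, 4.80 and 4.60 in the YFP-positive replicates, against 2.78, 2.60 and 3.31 in the YFP-negative ones. The ranges were apart by more than 1 log2 unit, and all 3 YFP-negative values were below the array medians. The difference was 1.89 ± 0.21 (SE), or 3.72-fold (limma adjusted p = 0.00832). The call held in each of the 6 fits without 1 array (highest adjusted p = 0.0432), but not without moderation (adjusted p = 0.0819).

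Tlr7, the single-stranded RNA receptor whose gene lies next to Tlr8 on chromosome X, had its lower mean in YFP-positive cells. The YFP-positive arrays 1, 2 and 3 read 3.51, 3.48 and 4.73, against 5.08, 6.71 and 4.32 in the YFP-negative replicates. The groups overlapped through both arrays numbered 3, and the YFP-negative arrays spread widely. The difference of -1.46 ± 0.67 (SE) did not pass (limma adjusted p = 0.344), and it was -0.79 without YFP-negative replicate 2 and -2.40 without both arrays numbered 3. The adjacent genes Tlr8 and Tlr7 thus had differences of opposite sign, of which only that of Tlr8 passed.

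Tlr9, the receptor for unmethylated CpG DNA, had nearly equal means. It read 5.08, 4.33 and 4.32 in the YFP-positive replicates, against 4.43, 4.59 and 4.78 in the YFP-negative ones. The YFP-positive values enclosed the YFP-negative ones. The 95% interval of its difference ran from -0.60 to 0.56 (limma adjusted p = 0.979).

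**Figure D2:**
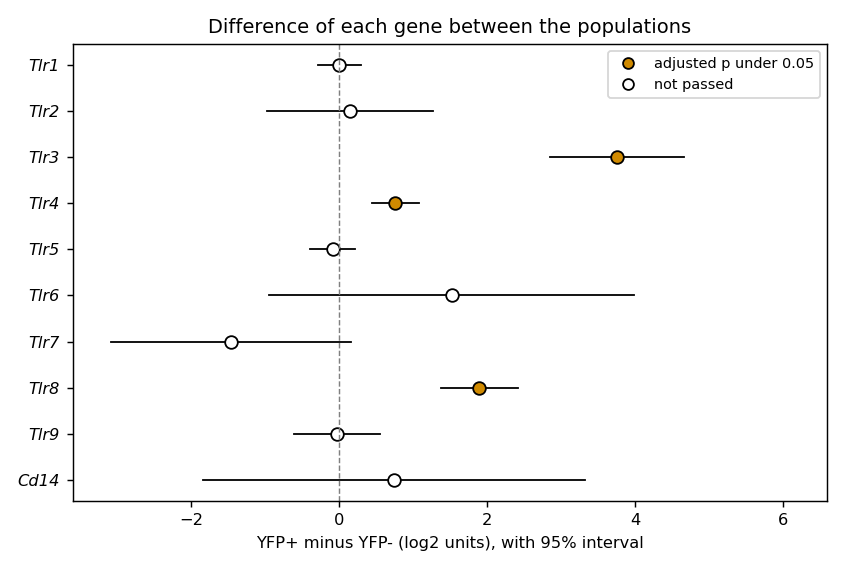
Difference between the population means of each gene, YFP-positive minus YFP-negative, in log2 units, with limma's 95% interval. Filled points passed an adjusted p of 0.05. The intervals of Tlr6, Cd14 and Tlr7 are wide, while those of Tlr1 and Tlr5 lie within 0.4 of 0.

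At the cell surface, Tlr4, the receptor for bacterial lipopolysaccharide, was modestly higher in YFP-positive cells. The YFP-positive replicates read 6.24, 6.42 and 6.44, against 5.41, 5.72 and 5.69 in the YFP-negative replicates. All 6 values were above the array medians and each group was tight. The difference was 0.76 ± 0.13 (SE), or 1.70-fold (95% interval 0.44 to 1.08, limma adjusted p = 0.0322). This call was the least stable of the 3: it was lost whichever of the 6 arrays was left out (adjusted p = 0.0666 to 0.0983), with a trended and robust variance (adjusted p = 0.126) and without moderation (adjusted p = 0.108), while the difference stayed between 0.66 and 0.83 in the 6 fits.

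Tlr4 binds lipopolysaccharide only together with Ly96 (MD-2), and Ly96 was higher too. Its level was 9.20, 9.68 and 8.34 in YFP-positive arrays, against 6.28, 4.20 and 4.87 in YFP-negative arrays. Its difference was 3.96 ± 0.59 (SE), or 15.5-fold (limma adjusted p = 0.0204), with all YFP-positive arrays above all YFP-negative ones. The call of Ly96 was lost in 4 of 6 fits on 5 arrays, those without YFP-positive replicate 1 or 2 and YFP-negative replicate 2 or 3 (highest adjusted p = 0.0727). That call was also lost without moderation (adjusted p = 0.139), with the replicate block (adjusted p = 0.0519) and without both arrays numbered 3 (adjusted p = 0.0759). Lbp, the serum protein that delivers lipopolysaccharide to Cd14, had a mean of 8.85 ± 0.19 on YFP-positive and 8.16 ± 0.16 on YFP-negative arrays (± SD, n = 3 each). Its groups did not overlap but it did not pass (limma adjusted p = 0.0609), except with quantile normalization.

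Cd14, which passes lipopolysaccharide to the Tlr4 and Ly96 complex, did not pass the test. Its level was 3.83, 3.18 and 7.02 on YFP-positive arrays 1, 2 and 3, against 3.25, 3.54 and 5.02 in the YFP-negative replicates. In each population the array numbered 3 was high and the other 2 lay near the array medians. The difference of 0.74 ± 1.06 (SE) did not pass (limma adjusted p = 0.814, 95% interval -1.84 to 3.32), and it was -0.43 without YFP-positive replicate 3. The arrays with high Cd14 were the 2 with the highest sums of both neutrophil and monocyte and macrophage markers. The summed log2 level of the 16 neutrophil markers was 120, 128 and 153 on YFP-positive arrays 1, 2 and 3, against 109, 116 and 150 on the YFP-negative arrays. Of these markers 13 were highest on the array numbered 3 in both populations, among them the granule collagenase Mmp8 and the granule protease Elane. The 3 that were not were the granule proteins Mpo, Prtn3 and Ctsg. Of these, Mpo and Ctsg were highest on array 3 among the YFP-positive arrays but not among the YFP-negative ones. Elane lay in a narrow range on the YFP-positive arrays (7.17, 7.21 and 7.29). None of the 16 passed limma's test, and 2, Prtn3 and Ctsg, had an unadjusted p under 0.05, both with the lower mean in YFP-positive cells. The 15 monocyte and macrophage markers summed to 74.3, 76.1 and 86.9 on YFP-positive arrays 1, 2 and 3, against 71.9, 77.1 and 84.0 on the YFP-negative arrays. Of these, 6 were highest on the array numbered 3 in both populations, namely Ly6c2, Ccr2, Cd68, Lyz2, F13a1 and Cd5l. The other 9 were not, namely Csf1r, Cx3cr1, Adgre1, Fcgr1, C1qa, C1qb, C1qc, Ms4a6c and Marco. Cd5l was below the array medians on all 6 arrays, so its order over the arrays cannot be told from background. Adgre1 and C1qc had no population mean above the highest array median. The part of either cell type in the level of Cd14 was not tested.

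Cd180 and Ly86 form a surface complex related to Tlr4 and Ly96 that is best known from B lymphocytes. Cd180 read 3.11, 3.86 and 3.95 in YFP-positive arrays, against 5.12, 6.92 and 4.34 in YFP-negative arrays. The groups did not overlap, yet the difference of -1.82 ± 0.66 (SE) did not pass (limma adjusted p = 0.229), and it was -1.09 without YFP-negative replicate 2. Within the YFP-negative arrays Cd180 and Tlr7 had the same order, highest in replicate 2 and lowest in replicate 3. Ly86 read 3.34, 3.58 and 6.78 in YFP-positive arrays and 4.79, 5.55 and 6.49 in YFP-negative arrays, and its groups overlapped (limma adjusted p = 0.693). Its difference was -1.04, and -2.14 without YFP-positive replicate 3. It was high in both arrays numbered 3, as Cd14 was.

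**Figure D3:**
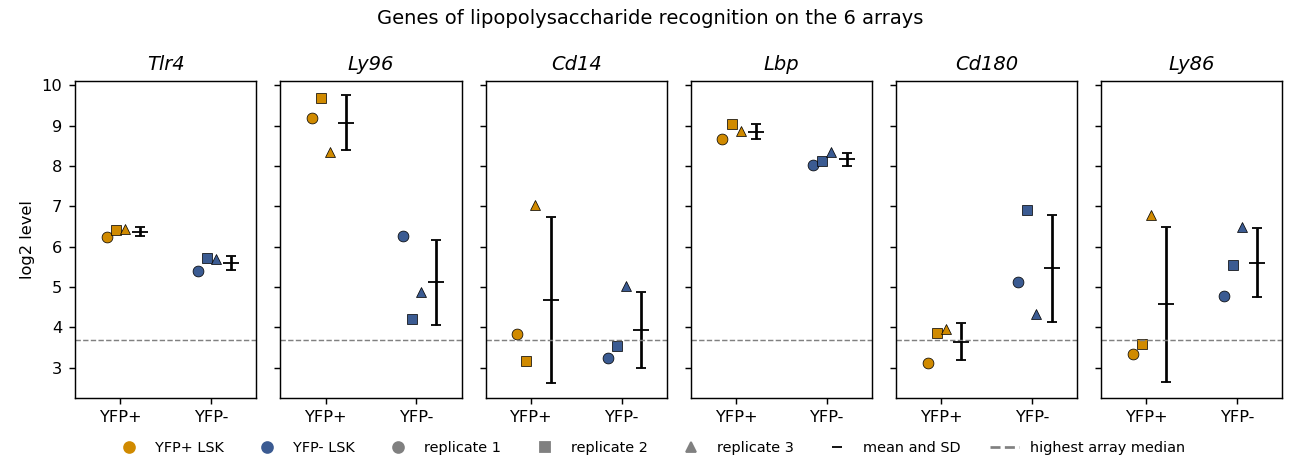
Log2 levels of 6 genes of lipopolysaccharide recognition on the 3 YFP-positive and the 3 YFP-negative arrays, with mean and SD of 3 arrays and the highest array median (dashed). Levels of different genes come from different probes and are not comparable. Tlr4, Ly96 and Lbp lie higher in all YFP-positive arrays, Cd180 lower, and Cd14 and Ly86 overlap, with their highest values in the arrays numbered 3.

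Tlr2, which binds bacterial lipoproteins as a partner of Tlr1 or Tlr6, was measured well above the array medians on all 6 arrays. It read 6.54, 5.88 and 7.42 in the YFP-positive replicates, against 6.33, 5.98 and 7.10 in the YFP-negative ones. The order of the replicates was the same in both populations, with replicate 3 highest and replicate 2 lowest. The difference was 0.15 ± 0.46 (SE), with a 95% interval of -0.97 to 1.26 (limma adjusted p = 0.924). The neutrophil and monocyte marker sums described with Cd14 were highest in the same 2 arrays, and their part in the level of Tlr2 was not tested.

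Tlr6, the partner of Tlr2 for diacylated lipoproteins, had 1 array far from the others. YFP-positive replicate 1 read 7.55, beside 3.89 and 3.80 on the other YFP-positive arrays, against 3.20, 3.85 and 3.62 in the YFP-negative replicates. The other 5 arrays lay within 0.7 of one another. The difference of 1.52 ± 1.01 (SE) did not pass (limma adjusted p = 0.552) and was 0.29 without that array. Tlr1, the partner for triacylated lipoproteins, whose gene is adjacent to Tlr6 on chromosome 5, read 2.64 to 2.88 on YFP-positive and 2.62 to 2.85 on YFP-negative arrays. All 6 values were below the array medians (difference 0.0049 ± 0.12 SE, limma adjusted p = 0.992).

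Tlr5, the flagellin receptor, read 3.36, 3.53 and 3.48 in YFP-positive arrays, against 3.53, 3.39 and 3.71 in YFP-negative arrays. Only YFP-negative replicate 3 exceeded the array medians, so a level above background was not shown for it (limma adjusted p = 0.818). The remaining mouse receptors, Tlr11, Tlr12 and Tlr13, did not pass either. Tlr12 had a mean of 4.23 ± 0.38 on YFP-positive and 4.59 ± 0.38 on YFP-negative arrays (± SD, n = 3 each, limma adjusted p = 0.608). Tlr11 had a mean of 3.60 ± 0.22 on YFP-positive and 3.48 ± 0.22 on YFP-negative arrays. Tlr13, a receptor for bacterial ribosomal RNA, read 2.75, 2.43 and 4.91 on the YFP-positive arrays and 2.36, 2.52 and 3.18 in the YFP-negative ones, highest in both arrays numbered 3.

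**Figure D4:**
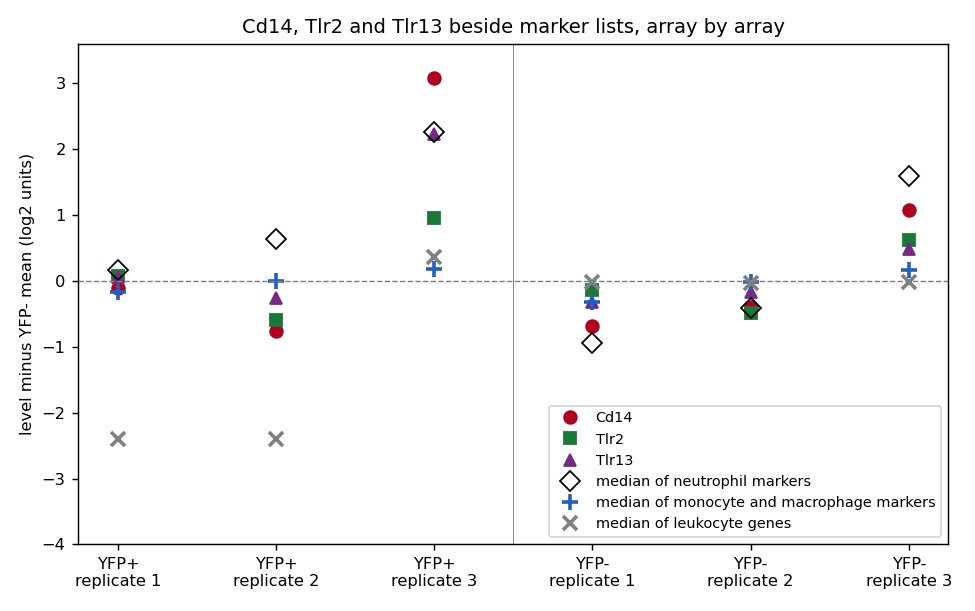
Level of Cd14, Tlr2 and Tlr13 on each array as the difference from the YFP-negative mean (log2 units), beside the medians of the neutrophil markers, the monocyte and macrophage markers and the leukocyte genes. In both populations the 3 receptors and the neutrophil and monocyte medians are highest in replicate 3, while the leukocyte median is -2.40 in YFP-positive replicates 1 and 2 and 0.37 in replicate 3.

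The proteins that assist the receptors moved unequally. Of 13 co-receptors, chaperones and proteases, 4 rose, 0 fell and 9 did not pass, and the median difference of the list was -0.31. The share called was 30.8%, against 4.84% of all genes. Besides Ly96, the 4 were Cd36, a fatty acid transporter that also serves Tlr2 and Tlr6 as a co-receptor, and the lysosomal proteases Lgmn and Ctsl, which can process the ectodomains of endosomal receptors. Cd36 read 9.85, 9.51 and 9.40 in YFP-positive arrays, against 3.11, 2.98 and 2.74 in YFP-negative arrays, which were all below the array medians. Lgmn had a mean of 9.53 ± 0.21 on YFP-positive and 3.54 ± 0.44 on YFP-negative arrays (± SD, n = 3 each). This is a difference of 5.99 ± 0.25 (SE), or 63.6-fold (limma adjusted p = 0.000256), measured from a YFP-negative mean below the array medians. Ctsl had a mean of 11.3 ± 0.15 on YFP-positive and 7.03 ± 0.74 on YFP-negative arrays, or 19.6-fold higher (limma adjusted p = 0.00307). Endothelial markers were higher in the same arrays, and their part in these levels was not tested. Ctss, another protease of the list, had its lower mean in YFP-positive cells. It read 6.06, 6.71 and 8.58 in YFP-positive arrays, against 8.97, 8.63 and 8.57 in YFP-negative arrays. The difference of -1.60 ± 0.63 (SE) did not pass (limma adjusted p = 0.266). Unc93b1, which carries the nucleic acid sensors from the endoplasmic reticulum to endosomes, did not pass. It read 6.57, 5.61 and 6.82 in YFP-positive arrays and 6.89, 6.74 and 6.74 in YFP-negative arrays (limma adjusted p = 0.564). Hsp90b1, the chaperone that folds most of these receptors, had a mean of 11.1 ± 0.09 on YFP-positive and 10.7 ± 0.16 on YFP-negative arrays, with no overlap, but did not pass (limma adjusted p = 0.187).

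Myd88, Tirap, Ticam1 and Ticam2, the adaptors that link the receptors to transcription, did not pass the test. Myd88 had a mean of 5.27 ± 0.32 on YFP-positive and 5.08 ± 0.35 on YFP-negative arrays (± SD, n = 3 each, limma adjusted p = 0.787). Ticam1, the sole adaptor of Tlr3, had a mean of 3.94 ± 0.26 on YFP-positive and 3.91 ± 0.38 on YFP-negative arrays (limma adjusted p = 0.977). Tirap, which brings Myd88 to Tlr2 and Tlr4, differed by 0.39 ± 0.24 (SE). Ticam2, the bridge from Tlr4 to Ticam1, differed by -0.60 ± 0.18 (SE), and its YFP-positive arrays (4.16 to 4.46) were all below its YFP-negative arrays (4.61 to 5.17, limma adjusted p = 0.152). Traf6, the ubiquitin ligase downstream of Myd88, differed by -0.34 ± 0.34. Of 23 measured adaptors and kinases, 1 fell, 0 rose and 22 did not pass, or 4.35% called, near the 4.84% of all genes. The one that fell was Btk, a kinase of B and myeloid cells, which read 4.93, 5.07 and 5.75 on YFP-positive and 6.88, 7.40 and 6.74 on YFP-negative arrays. Btk was 3.38-fold lower (limma adjusted p = 0.0233), and passed in only 1 of the 6 fits without 1 array, that without YFP-positive replicate 3. Map3k7 (TAK1), the kinase that activates the NF-kappaB and MAP kinase branches, had no overlap between populations (7.09 to 7.47 in YFP-positive, 6.57 to 6.92 in YFP-negative arrays) but did not pass (limma adjusted p = 0.102).

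Of 12 measured transcription factors of the pathway, 0 passed limma's test, and 2, Irf8 and Irf3, reached 0.05 before adjustment. Over all genes 4.84% passed. Irf8, a factor of myeloid and lymphoid lineages, had a mean of 8.73 ± 0.48 on YFP-positive and 7.95 ± 0.29 on YFP-negative arrays. Irf3, the interferon-inducing factor downstream of Ticam1, had a mean of 6.41 ± 0.14 on YFP-positive and 5.84 ± 0.40 on YFP-negative arrays (± SD, n = 3 each, limma adjusted p = 0.249). Among 21 measured inhibitors, 1 rose, 1 fell and 19 did not pass, or 9.52% called. Socs3, a feedback inhibitor of cytokine signalling, was 3.45-fold higher in YFP-positive cells, at 10.4, 9.45 and 9.32 against 7.94, 7.85 and 8.03 in YFP-negative cells (limma adjusted p = 0.0285). With the mean of all its probes the difference was 1.16, or 2.24-fold. Leaving out YFP-positive replicate 2 or any YFP-negative array ended its call (highest adjusted p = 0.105). Inpp5d, the lipid phosphatase SHIP1 of blood cells, was 2.95-fold lower (difference -1.56 ± 0.26 SE, limma adjusted p = 0.0268), and passed only without YFP-positive replicate 2 among those 6 fits. Its level was 5.67, 6.43 and 6.15 on YFP-positive arrays 1, 2 and 3, against 8.01, 7.55 and 7.36 on the YFP-negative arrays. The leukocyte genes, of which 1 of 10 passed (Vav1, lower), had a summed log2 level of 62.9, 63.3 and 87.3 on YFP-positive arrays 1, 2 and 3, against 81.5 to 86.3 in YFP-negative arrays. Their part in the lower levels of Inpp5d and Btk was not tested.

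Of 17 measured cytosolic sensors, which detect microbial molecules inside the cell, 1 rose, 0 fell and 16 did not pass. The share called was 5.88%, near the 4.84% of all genes. The riser was Nod1, a sensor of bacterial peptidoglycan. Nod1 read 7.92, 7.92 and 7.89 in YFP-positive arrays, against 5.69, 5.48 and 5.83 in YFP-negative arrays. The groups were tight and far apart, with a difference of 2.24 ± 0.12 (SE), or 4.73-fold (limma adjusted p = 0.000593). The call held in all 6 fits without 1 array (highest adjusted p = 0.00676). Mavs, the adaptor of the cytosolic RNA sensors, had a mean of 6.31 ± 0.47 on YFP-positive and 4.96 ± 0.41 on YFP-negative arrays, without overlap, and did not pass (limma adjusted p = 0.0696), except with dim genes left out (adjusted p = 0.049).

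Among 32 genes that Toll-like receptor signalling is known to induce, 5 rose, 1 fell and 26 did not pass, with a median difference of -0.03. The share called was 18.8%, against 4.84% of all genes. Those that rose included Vcam1 and Sele, adhesion molecules of endothelium, and the chemokines Cxcl9 and Cxcl1. Vcam1 had a mean of 10.1 ± 0.27 on YFP-positive and 4.05 ± 0.03 on YFP-negative arrays (67.2-fold), and Sele 10.0 ± 0.51 on YFP-positive and 4.67 ± 0.06 on YFP-negative arrays (40.6-fold). Cxcl9 read 9.71, 9.30 and 7.55 in YFP-positive arrays, against 3.55, 3.50 and 3.71 in YFP-negative arrays, whose mean was below the array medians. Its difference was 5.27 (limma adjusted p = 0.00609), and 5.92 without YFP-positive replicate 3. Cxcl1 was 8.38-fold higher (limma adjusted p = 0.0146). Cxcl1 lost its call whichever YFP-negative array was left out. The endothelial markers were higher in the same arrays, and their part in these differences was not tested. The fifth was Il6, at 2.89-fold higher (limma adjusted p = 0.0362). It read 4.76, 3.74 and 4.02 in YFP-positive arrays, and 2.52, 2.57 and 2.84, all below the array medians, in YFP-negative arrays. It passed in 2 of the 6 fits without 1 array (highest adjusted p = 0.125). The gene that fell was Il12a, a subunit of interleukin 12 and interleukin 35, at 3.64, 3.61 and 3.81 on YFP-positive and 7.75, 6.53 and 7.17 on YFP-negative arrays (11.0-fold lower, limma adjusted p = 0.0034). The inflammatory cytokines Tnf and Il1b were highest in both arrays numbered 3. Tnf read 5.45, 6.17 and 9.24 on the YFP-positive arrays and 7.31, 7.92 and 9.30 in the YFP-negative ones. Il1b read 5.72, 5.56 and 8.99 on YFP-positive and 4.54, 5.0 and 6.79 on YFP-negative arrays, and neither gene passed. Without YFP-positive replicate 3 the difference of Tnf was -2.37 and that of Il1b 0.20.

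Over the 7 lists of the pathway, 121 genes were measured, of which 11 rose, 3 fell and 107 did not pass. This is 11.6% called, against 4.84% of all genes, and 9.09% higher, against 2.88%. The calls were spread unevenly over the lists. The co-receptor list held 4 of them and the target list 6, at 30.8% and 18.8% of those lists. The inhibitors had 9.52% called, the cytosolic sensors 5.88% and the adaptors and kinases 4.35%. The transcription factors and Tlr11 to Tlr13 had 0. The lists too were chosen with earlier results known, so these shares are a description and not a test. The median difference of the 121 genes was 0.04. Of the 14 called genes, 8 kept their call in all 6 fits without 1 array, namely Cd36, Ctsl, Cxcl9, Il12a, Lgmn, Nod1, Sele and Vcam1.

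**Figure D5:**
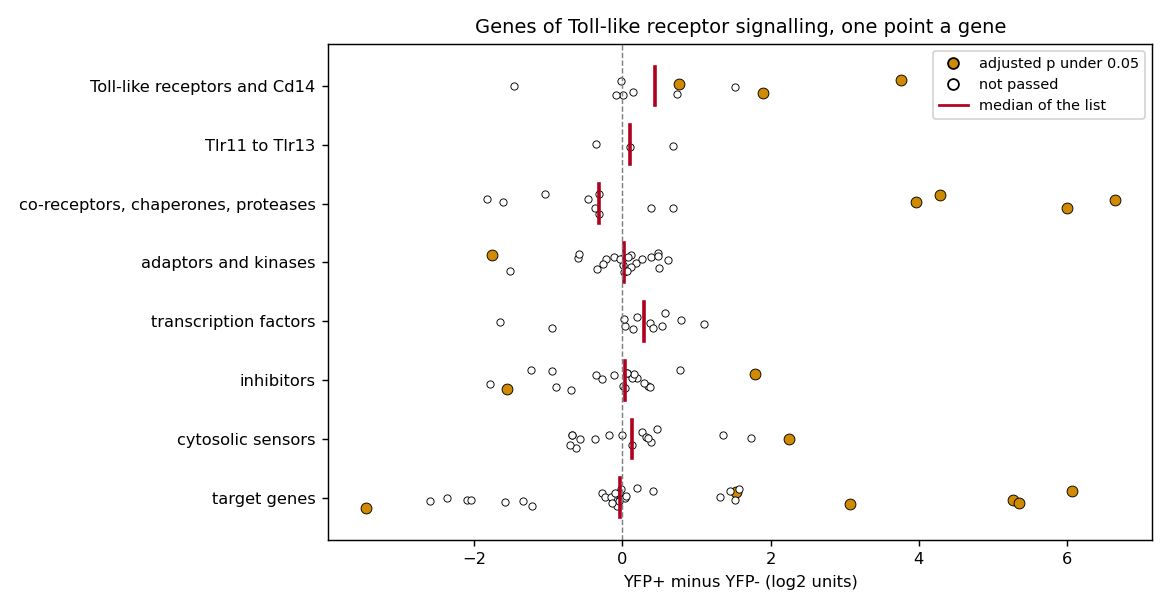
Difference between populations (YFP-positive minus YFP-negative, log2 units) of each gene of the receptor set and of the 7 pathway lists, 1 point a gene. Filled points passed an adjusted p of 0.05 and red bars are list medians, which lie between -0.31 and 0.44. The largest called differences are in the co-receptor and target lists.

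The pattern of each receptor over the 6 arrays was set beside that of 17316 other named genes by Pearson's correlation, as a description over 6 points that share 2 populations. Nearest to Tlr3 were Dnase1l3, a secreted nuclease, Plekhg1 and Cxcl9 (each r = 0.997 to 0.998). For Tlr8 they were Colec12, a scavenger receptor, C1qtnf1 and Ctsl (r = 0.995 to 0.996), and for Tlr4 Csf2rb2, Srgap2 and the tumour necrosis factor receptor Tnfrsf1a (r = 0.990 to 0.994). Tlr2 was nearest to Cspp1, Ndst3 and the protease inhibitor Slpi (r = 0.979 to 0.992), and Cd14 to Hsd11b1, Pde3a and Adam8 (r = 0.995 to 0.999). Tlr7 was nearest to Rcc1, Chaf1b and Gmeb2 (r = 0.989 to 0.996). The nearest genes of Tlr6 were Bbs7, Sbk2 and Neurl1b (r = 0.994 to 0.998), and its span of 4.35 log2 units was set by YFP-positive replicate 1. Of the 21 nearest genes, 5 (Ndst3, Bbs7, Sbk2, Neurl1b and Pde3a) had no population mean above the highest array median, so their levels cannot be told from background.

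Markers of other cells that carry these receptors were set beside them. Over all genes 4.84% were called, 2.88% higher and 1.96% lower. Of 15 monocyte and macrophage markers 0 passed limma's test and 2 had an unadjusted p under 0.05 (sums are given with Cd14). Csf1r, the receptor that defines that lineage, was not among the 6 that peaked on both arrays numbered 3, and read 4.22, 4.55 and 4.85 on YFP-positive and 3.99, 5.20 and 5.09 on YFP-negative arrays. Among 7 dendritic markers 1 rose, Cd209a, and Siglech of plasmacytoid dendritic cells stayed below the highest array median on all 6 arrays. The sums were 31.3 to 33.4 on YFP-positive and 30.2 to 31.4 on YFP-negative arrays. Of 7 B lymphoid markers 1 fell, Cd79b, and their sums were 22.8 to 23.8 on YFP-positive and 25.0 to 26.4 on YFP-negative arrays. Of 8 stromal markers 0 passed limma's test and 3 had an unadjusted p under 0.05. Their sums were 32.0 to 36.6 on YFP-positive and 30.9 to 31.4 on YFP-negative arrays. The 3 were Cxcl12 and Lepr, with differences of 1.82 and 1.87, and Pdgfrb, with -0.30. The other stromal markers differed by -0.03 to 0.15.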

How the data were processed

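Expression was measured by array in 3 YFP-positive and 3 YFP-negative samples of LSK cells, per the labels. The deposited table holds log2 values, 1 column per array, for 41345 probes. Its scale was read from the values. The submitters' processing notes name Partek, while no source used here gives the background correction, summarisation or normalization. Of 25335 annotated probes, 23521 had 1 symbol and 1814 several. Each gene was read by its probe of highest mean, which gave 22180 genes. No detection calls were used. Precision is limited by having 6 arrays.

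The test of each difference was limma's (version 3.58.1, R 4.3.3; lmFit and eBayes, population as the only term, two-sided, Benjamini-Hochberg over all genes, threshold 0.05), with code tested on simulated data. Alternatives were the mean of probes, leaving out dim genes, quantile normalization, other variance models, a replicate block and leaving out each array. Leaving out both arrays numbered 3 was added after seeing the data.

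The members and gene lists were chosen with earlier results of these data known. 2 list genes were matched under newer symbols. Named were all members, up to 4 genes per direction and list of smallest p past the threshold, up to 2 not past it, some fixed genes of the pathway, markers, and the 3 genes most correlated with each member where that member spanned at least 1 log2 unit and lay above the array medians.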

Additional observations from a re-analysis of the deposited data

How the results depend on the processing

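Over the 13 alternatives, 7 of the 10 receptor genes kept their side of the threshold, and Tlr3, Tlr8 and Tlr4 changed it. The number of the 10 called was 2 whichever array was left out, and 0 with limma's unmoderated test, where 3 (Tlr3, Tlr4 and Tlr8) had an unadjusted p under 0.05. Over all genes the count of 1074 became 180 (145 higher, 35 lower) without moderation, 580 (412 higher, 168 lower) with the replicate number as a block, and 430 to 1185 without 1 array. Of the YFP-positive arrays, leaving out replicate 1 gave 559 and replicate 2 gave 607. Of the YFP-negative arrays, replicate 1 gave 463, replicate 2 gave 430 and replicate 3 gave 611. The pathway genes called numbered 5 without moderation and 8 to 16 without 1 array, lowest without YFP-negative replicate 3 (8) and replicate 2 (9). The replicate block changed the call of 1 receptor, Tlr4 (adjusted p = 0.065). The replicate numbers did not meet the criterion for pairing: same-numbered arrays had deviations correlated at 0.0985, 0.0806 and 0.167 for numbers 1, 2 and 3, where each had to exceed 0.1, though every array correlated best with its own number, a hint from the data and not the design.

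The sign turned for some genes that did not pass, among them Cd14 and Tlr13. Without 1 array, the difference ranged from -0.0614 to 0.0616 for Tlr1, -0.26 to 0.52 for Tlr2, -0.28 to 0.11 for Tlr9, -0.43 to 1.49 for Cd14, -0.10 to 1.15 for Tlr13, -0.0042 to 0.35 for Myd88 and -0.18 to 0.20 for Ticam1. Without both arrays numbered 3 it was -0.0047 for Tlr1, 0.20 for Tlr9, -0.0526 for Tlr11 and -0.11 for Ticam1, and with quantile normalization it was -0.0012 for Ticam1. The cause of these changes was not tested. Levels below the array medians limit what can be said of Tlr1, Tlr5 and of Tlr3 and Tlr8 in YFP-negative cells. Leaving out dim genes gave no value for Tlr1, Tlr5, Tlr11 and Tlr13, which that filter drops.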
